A study of Mus musculus with 6 samples.

Results

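The tropomyosin genes *Tpm1*, *Tpm2*, *Tpm3* and *Tpm4* were followed in brown adipose tissue (BAT) of mice fed a low-fat diet (LFD) or a high-fat diet (HFD). They were taken by gene symbol and are 4 of the 47729 genes listed for each mouse. The family was chosen by the expected counts and TPM of its members in these same mice, HFD against LFD, so the diet differences below are given as descriptions, without a test. All 6 mice were wild type C57BL/6J males, fed from 6 to 10 weeks of age. The 3 HFD-fed mice received a diet labelled as 45% high-fat, and the 3 LFD-fed mice received a standard rodent diet. RNA came from whole tissue of the right interscapular pad, so that every cell type of the piece contributed to it. By the study's methods, the mice of each diet with the most, the middle and the least body fat were the ones sequenced, and the methods do not say which replicate number belongs to which of them.

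Tropomyosins are rod-shaped proteins that lie end to end along actin filaments. In striated muscle they carry the troponin complex and, with calcium, control the access of myosin to actin. In other cells they decide which actin-binding proteins can use a filament. *Tpm1* encodes alpha-tropomyosin and *Tpm2* beta-tropomyosin, which are abundant in skeletal and smooth muscle. *Tpm3* gives rise both to a tropomyosin of slow muscle fibres and to shorter cytoskeletal forms. *Tpm4* is known mainly for cytoskeletal forms. Tropomyosin genes can yield several proteins by alternative first exons, internal exons and last exons. In the annotation used here, 1 of the 2 transcripts of *Tpm4* is protein-coding.

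In the GENCODE M21 annotation of GRCm38, *Tpm1* (ENSMUSG00000032366) lies at chr9:67022590-67049406 on the minus strand and *Tpm2* (ENSMUSG00000028464) at chr4:43514711-43523765 on the minus strand. *Tpm3* (ENSMUSG00000027940) lies at chr3:90072649-90100902 and *Tpm4* (ENSMUSG00000031799) at chr8:72134975-72153142, both on the plus strand. Sequence before the start sites is shown for *Tpm1* and *Tpm2*, the pair that was lower in HFD-fed mice, and for *Tpm4*, whose diets overlapped. Each is the longest run outside the exons of GENCODE M21 within the 250 bases before the RefSeq start site on GRCm38.p6, read 5′ to 3′ on the strand of the gene, with GC boxes (GGGCGG or its complement CCGCCC) in capitals.
Tpm1, chr9:67049407-67049463, minus strand: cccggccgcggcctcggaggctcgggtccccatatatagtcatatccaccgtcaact
Tpm2, chr4:43523596-43523700, minus strand: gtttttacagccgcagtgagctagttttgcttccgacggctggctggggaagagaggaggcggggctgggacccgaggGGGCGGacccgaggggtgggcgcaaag
Tpm4, chr8:72135050-72135258, plus strand: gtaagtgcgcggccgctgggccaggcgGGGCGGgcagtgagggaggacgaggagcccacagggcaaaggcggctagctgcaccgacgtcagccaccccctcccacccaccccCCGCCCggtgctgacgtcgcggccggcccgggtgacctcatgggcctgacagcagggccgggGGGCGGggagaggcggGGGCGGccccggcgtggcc

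The run of *Tpm4* held 4 GC boxes, that of *Tpm2* held 1 and that of *Tpm1* held 0. Over the full 250 bases on both strands, the window of *Tpm4* held 5 GC boxes, that of *Tpm2* held 2 and that of *Tpm1* held 1, while 32.7% of 32851 such windows of all genes held at least 1. An E-box (CANNTG), the sequence read by myogenic factors and by many other proteins, was found once each for *Tpm1* (198 bases before the start) and *Tpm2* (227 bases before), and in 66.2% of all windows. *Tpm4* had 0 E-boxes, and both start sites that RefSeq gives for *Tpm3* had 1. An MCAT motif (CATTCC or GGAATG), read by TEAD proteins, stood 56 bases before the start of *Tpm1* and in 12.6% of all windows. No window of the family held the CArG box of serum response factor (1.47% of all windows), the MEF2 box (0.508%) or the TATA box (TATAAA, 12.4%). These are matches of letters in 1 short window per start site.

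Between 17156991 and 21603487 rounded expected counts per mouse lay on genes, and mitochondrially encoded genes took 8.50% to 22.7% of them in HFD-fed and 3.87% to 13.8% in LFD-fed mice. With a threshold of 0.01 on the adjusted *P* and of 1.5 on the size of the log2 fold change, edgeR's quasi-likelihood test over 17668 genes called no gene (0 lower and 0 higher in HFD, 0% of genes), while an unadjusted *P* under 0.05 was reached by 1169 genes lower in HFD (6.62%) and 682 higher (3.86%). A fit blocked on replicate number gave 1548 lower and 1546 higher genes at that *P*, with 0 called. DESeq2 called 287 of the same genes lower (1.62%) and 102 higher (0.577%). The label of the tissue was checked against *Ucp1*, which encodes the uncoupling protein that defines brown adipocytes. *Ucp1* had 2728, 4021 and 796 TPM (transcript abundance scaled by length and library) in HFD 1, 2 and 3 and 443, 11.0 and 76.0 TPM in LFD 1, 2 and 3. Every LFD-fed mouse was below every HFD-fed mouse, and LFD 2 had the least *Ucp1*. LFD 2 also had the most skeletal muscle mRNA, as given below, and the tropomyosin results were therefore computed with and without it.

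*Tpm2*, the beta-tropomyosin gene, showed the widest difference between the diets in the family. Its level was 479, 1344 and 399 TPM in LFD 1, 2 and 3. In HFD 1, 2 and 3 it was 25.9, 69.5 and 64.4 TPM. The diets did not overlap, and the lowest LFD-fed mouse stood far above the highest HFD-fed mouse. The mean was 741 ± 524 TPM in LFD-fed and 53.3 ± 23.8 TPM in HFD-fed mice (SD, n = 3 each), 13.9 times as high in LFD. On normalized counts the edgeR log2 fold change of HFD over LFD was -3.30 ± 0.55 (SE), the 256th largest in size among the 17668 genes. Without LFD 2 it was -2.78 ± 0.46. The value rested on 465 to 1057 counts in HFD-fed and 3264 to 12620 counts in LFD-fed mice.

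*Tpm1*, the alpha-tropomyosin gene, differed in the same direction by less. It had 274, 765 and 321 TPM in LFD 1, 2 and 3. It had 61.7, 90.0 and 121 TPM in HFD 1, 2 and 3. On TPM, LFD 2 was again the highest mouse and HFD 1 the lowest, and the diets did not overlap. The mean was 453 ± 271 TPM in LFD-fed and 90.9 ± 29.6 TPM in HFD-fed mice (SD, n = 3 each), 4.99 times as high in LFD. On normalized counts the log2 fold change was -1.77 ± 0.37 (SE), and -1.40 ± 0.31 without LFD 2. With *Tpm2*, 2 of the 4 tropomyosin genes lay lower in every HFD-fed mouse than in any LFD-fed mouse on log2 CPM (normalized counts scaled by library), as did 9.23% of all genes tested. On log2 CPM the lowest mouse in *Tpm1* was HFD 2 (6.55), below HFD 1 (6.74). The mRNA of whole tissue cannot tell fewer cells of a type from less RNA per cell.

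*Tpm3*, which serves slow fibres and the cytoskeleton, overlapped between the diets. It had 84.8, 323 and 471 TPM in LFD 1, 2 and 3. It had 149, 213 and 388 TPM in HFD 1, 2 and 3. On TPM the LFD-fed mice held both the lowest and the highest value, and the HFD-fed mice lay inside their range. On log2 CPM the highest mouse was HFD 3 (8.45), above LFD 3 (8.16), and the diets still overlapped. The mean was 293 ± 195 TPM in LFD-fed and 250 ± 124 TPM in HFD-fed mice (SD, n = 3 each). The log2 fold change of counts was 0.32 ± 0.44 (SE), smaller than its error, and its sign was opposite to that of the difference in mean TPM.

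*Tpm4*, the mainly cytoskeletal gene, had the widest spread of the family within LFD on log2 CPM (SD 1.22, beside 0.97 for *Tpm2*). It had 61.7, 140 and 604 TPM in LFD 1, 2 and 3. It had 124, 213 and 322 TPM in HFD 1, 2 and 3. LFD 3 was the highest mouse and LFD 1 the lowest, so the diets overlapped. The mean was 269 ± 293 TPM in LFD-fed and 220 ± 99.1 TPM in HFD-fed mice (SD, n = 3 each). The log2 fold change of counts was 0.14 ± 0.63 (SE), opposite in sign to the difference in mean TPM. It became 1.19 ± 0.35 without LFD 3, the mouse that held the LFD mean up. It turned negative without HFD 3 (-0.11), LFD 1 (-0.25) or LFD 2 (-0.16), and stayed positive without HFD 1 (0.25) or HFD 2 (0.23). The counts of *Tpm3* and *Tpm4* were not whole in any of 6 mice, since RSEM shared some of their reads with other genes, whereas those of *Tpm1* and *Tpm2* were whole in all 6. The rows *Tpm3-rs7* and *Tpm3-rs2*, sequences related to *Tpm3*, had 0 to 2.97 expected counts per mouse. *Tpm4* is overlapped by the antisense genes *Gm26586* (7 to 92 counts) and *Gm16091* (10 to 67 counts), and the strand setting of the counting is not given in the sources used here, so reads of *Tpm4* and of these genes cannot be told apart.

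**Figure D1:**
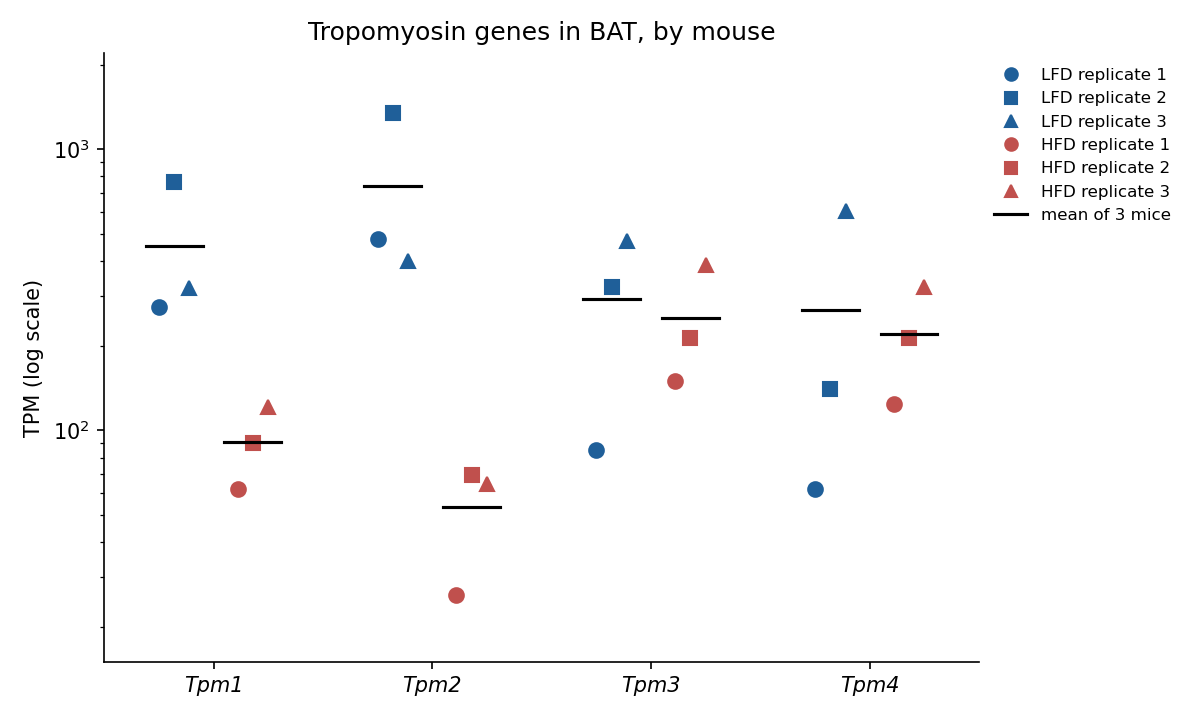
TPM of each tropomyosin gene in every mouse on a log axis, with LFD-fed mice in blue, HFD-fed mice in red, a marker shape for each replicate number and a black line at the mean of 3 mice. All LFD-fed mice stand above all HFD-fed mice for Tpm1 and Tpm2 (399 to 1344 against 25.9 to 69.5 TPM for Tpm2), and the diets overlap for Tpm3 and Tpm4.

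The order of the family differed between the diets. TPM is scaled by length, so levels can be set side by side between genes. In each of the 3 HFD-fed mice *Tpm3* was the highest member, followed by *Tpm4*, *Tpm1* and *Tpm2*. In LFD 1 and LFD 2 *Tpm2* was first, then *Tpm1*, *Tpm3* and *Tpm4*, so that *Tpm1* and *Tpm2* stood above the other two while *Tpm3* stayed above *Tpm4*. LFD 3 had yet another order, in which *Tpm4* came first, then *Tpm3*, *Tpm2* and *Tpm1*. *Tpm3* and *Tpm4* were nearly level in HFD 2, at 213.06 and 212.59 TPM.

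*Tpm1* and *Tpm2*, both with the same direction, still changed places. The ratio of *Tpm1* to *Tpm2* in TPM was 2.38, 1.295 and 1.88 in HFD 1, 2 and 3. In LFD 1, 2 and 3 it was 0.573, 0.569 and 0.803. *Tpm1* was therefore above *Tpm2* in 3 of 3 HFD-fed mice and in 0 of 3 LFD-fed mice. As log2 of (TPM + 1), the level of *Tpm1* minus that of *Tpm2* was 0.83 ± 0.43 in HFD and -0.64 ± 0.28 in LFD (SD, n = 3 each). *Tpm3* exceeded *Tpm4* in 5 of 6 mice, the exception being LFD 3.

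Over all 6 mice, no pair of members kept a fixed order. The 6 pairs were compared within mice by a two-sided exact sign-flip permutation test on log2((TPM + 1)/(TPM + 1)), for which the smallest possible *P* is 0.03125. It uses the TPM by which the family was chosen and pools both diets, so it cannot show whether an order is fixed within a diet. The closest to a steady difference was *Tpm3* over *Tpm4*, with a mean log2 difference in level of 0.30 ± 0.52 (SD, n = 6, exact *P* = 0.21875, adjusted *P* = 1). The mean log2 difference in level was -0.39 ± 2.23 for *Tpm2* over *Tpm3* and -0.09 ± 2.54 for *Tpm2* over *Tpm4* (SD, n = 6, exact adjusted *P* = 1 for both). These differences had opposite signs in the diets. The log2 level of *Tpm2* over *Tpm3* was -2.22 ± 0.54 in HFD-fed mice, with *Tpm2* below in 3 of 3, and 1.43 ± 1.46 in LFD-fed mice, with *Tpm2* above in 2 of 3 (SD). Each of the 6 mice, when left out, turned the sign of the mean of at least 1 pair, 4 of the 6 pairs in all, and no adjusted *P* of these exact tests was then below 0.375. With 5 mice the smallest possible *P* of the exact test is 0.0625, so these adjusted *P* could not have fallen below 0.05.

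The share of each gene in the summed TPM of the family does not depend on the scaling between libraries. *Tpm2* made up 53.2%, 52.3% and 22.2% of the sum in LFD 1, 2 and 3 and 7.18%, 11.9% and 7.19% in HFD 1, 2 and 3. *Tpm1* made up 30.5%, 29.7% and 17.9% in LFD and 17.1%, 15.4% and 13.5% in HFD, in the same order of mice. Beta-tropomyosin mRNA was thus the largest part of the family in LFD 1 and 2 and the smallest part in every HFD-fed mouse. *Tpm3* made up 9.43%, 12.5% and 26.2% in LFD and 41.3%, 36.4% and 43.3% in HFD. *Tpm4* made up 6.86%, 5.44% and 33.6% in LFD and 34.4%, 36.3% and 36.0% in HFD. Among HFD-fed mice the SD of the share was 1.78 percentage points for *Tpm1*, 2.71 for *Tpm2*, 3.56 for *Tpm3* and 1.02 for *Tpm4*. LFD 3 lay between the HFD-fed mice and the other LFD-fed mice for each gene, in *Tpm4* just below the lowest HFD-fed mouse (33.6% against 34.4%). The summed level of the family was 899, 2572 and 1795 TPM in LFD 1, 2 and 3 and 361, 585 and 895 TPM in HFD 1, 2 and 3, so that the highest HFD-fed and the lowest LFD-fed mouse nearly met.

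**Figure D2:**
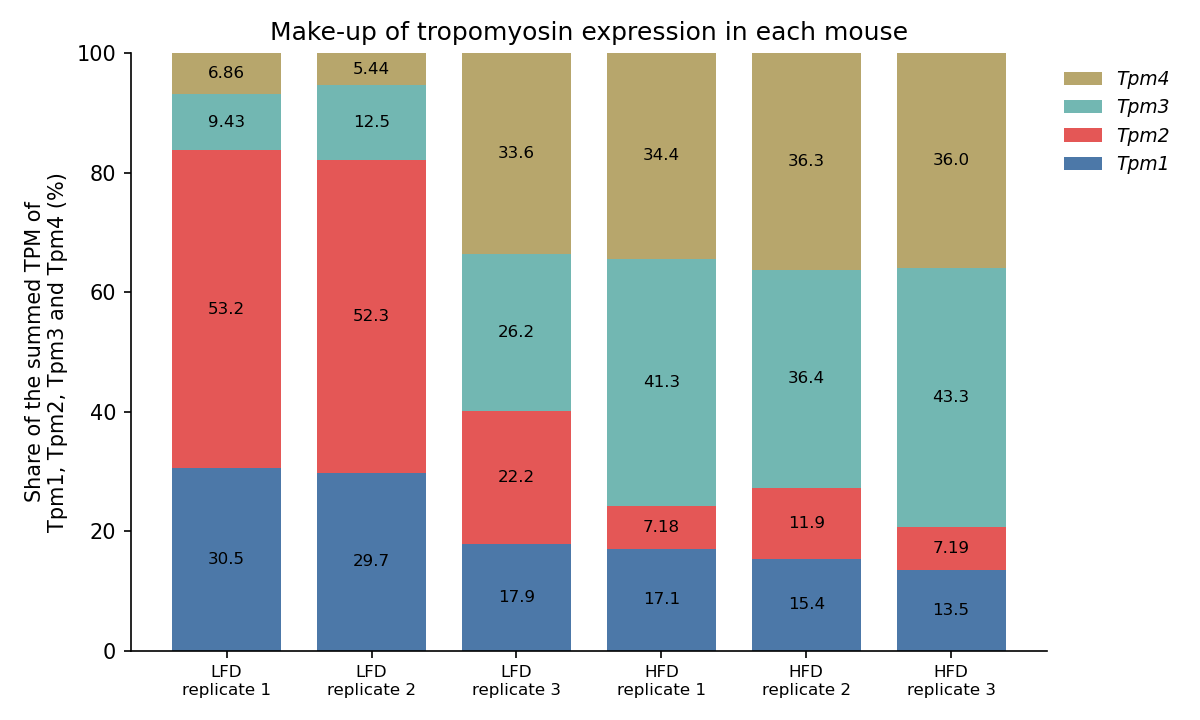
Stacked bars of the share of Tpm1 (blue), Tpm2 (red), Tpm3 (green) and Tpm4 (brown) in the summed TPM of the 4 genes, in percent, with 1 bar for each mouse. Tpm2 takes 53.2% and 52.3% in LFD replicates 1 and 2, 22.2% in LFD replicate 3, and 7.18% to 11.9% in the HFD-fed mice.

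The deposited length of a gene is the mean length of its transcripts, weighted by the abundance that RSEM estimated for each, so it moves when the mixture of transcripts moves. For *Tpm2*, with 6 annotated transcripts of 337 to 2175 bases, it was 743, 748 and 758 bases in LFD 1, 2 and 3. In HFD 1, 2 and 3 it was 892, 877 and 1021 bases. The mean for *Tpm2* was thus longer in every HFD-fed mouse, and the SD of the LFD-fed mice was 7.25 bases. *Tpm1*, with 21 transcripts of 649 to 2890 bases, had 1156, 1142 and 1372 bases in LFD 1, 2 and 3 and 1468, 1437 and 1507 bases in HFD 1, 2 and 3. LFD 3 was the LFD-fed mouse nearest to the HFD-fed mice in *Tpm1*, as it was in the composition of the family.

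*Tpm3*, with 16 transcripts, had 1162, 1099 and 1114 bases in LFD 1, 2 and 3 and 1167, 1366 and 1284 bases in HFD 1, 2 and 3. The diets were set apart in *Tpm3* by only the few bases between LFD 1 and HFD 1. *Tpm4* has 2 transcripts of 359 and 2128 bases, and its lengths of 1765 to 1820 bases in LFD and 1758 to 1847 bases in HFD overlapped. For *Tpm4* these lengths correspond to a share of about 79.1% to 84.1% for the long, protein-coding transcript. The transcript lengths given for these genes are those of GENCODE M21, whereas the counting used Ensembl 84. Of 30992 genes with a single transcript that could be matched, 88.7% had the same length in both, so these shares are approximate. In all, 3 of the 4 members had shorter lengths in every LFD-fed mouse, which 5.3% of the 11489 tested genes with several transcripts did, while 5.93% had longer lengths in every LFD-fed mouse. The ratio of mean lengths, HFD over LFD, was 1.24 for *Tpm2*, 1.20 for *Tpm1*, 1.13 for *Tpm3* and 1.00 for *Tpm4*, beside a median of 1 over these genes. The lengths do not name the transcripts that changed, because several mixtures give the same mean.

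**Figure D3:**
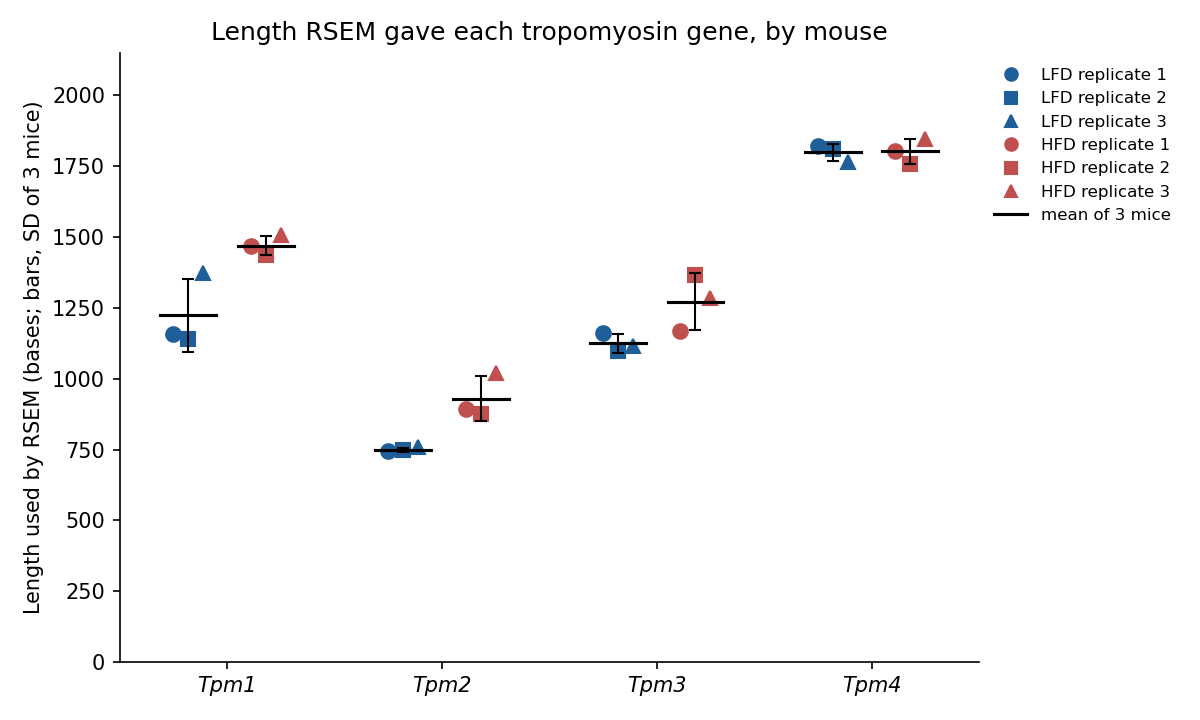
Abundance-weighted transcript length, in bases, that RSEM gave each tropomyosin gene in every mouse, with LFD-fed mice in blue, HFD-fed mice in red, and the mean and SD of 3 mice in black. Tpm1, Tpm2 and Tpm3 are longer in every HFD-fed mouse (877 to 1021 against 743 to 758 bases for Tpm2), and Tpm4 overlaps.

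The other genes of the striated thin filament, the actins, troponins, nebulin and filament-capping proteins on which tropomyosin sits in muscle, had a median log2 fold change further below 0 than the values of *Tpm1* and *Tpm2*, although *Tnni3* (-0.74) and *Tmod1* (-3.28) had smaller log2 fold changes than *Tpm2*. Of 15 such genes 13 were tested, and 11 of them were lower in every HFD-fed mouse than in any LFD-fed mouse (9.23% of all genes), with 0 in the other direction (6.72% of all genes). Their median log2 fold change was -5.79, against -0.05 over all genes. *Acta1*, the skeletal muscle actin gene, had 872, 2336 and 486 TPM in LFD 1, 2 and 3 and 8.30, 37.9 and 0.68 TPM in HFD 1, 2 and 3, a log2 fold change of -6.15 ± 1.49 (SE, adjusted *P* = 0.222 by edgeR). The log2 fold change was -6.31 ± 1.58 for the troponin T gene *Tnnt3* (adjusted *P* = 0.236 by edgeR) and -6.61 ± 1.51 for the troponin C gene *Tnnc2* (adjusted *P* = 0.198 by edgeR). By edgeR 0 of the 13 were called, with a smallest adjusted *P* of 0.170 and 12 at an unadjusted *P* under 0.05, while DESeq2 called 11. *Actc1*, *Tnnt2*, *Tnni1* and *Lmod2* were listed at 0 in at least 1 mouse.

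The summed TPM of the 15 thin filament genes was 3040, 7763 and 1210 in LFD 1, 2 and 3 and 27.1, 116 and 12.0 in HFD 1, 2 and 3. *Tpm2* amounted to 15.7%, 17.3% and 33.0% of that sum in LFD 1, 2 and 3 and to 95.9%, 59.9% and 538% in HFD 1, 2 and 3. *Tpm1* amounted to 9.03%, 9.85% and 26.5% in LFD and to 228%, 77.6% and 1011% in HFD. In every HFD-fed mouse, *Tpm1* and *Tpm2* mRNA was thus more abundant relative to the thin filament partners than in any LFD-fed mouse. Within HFD, the mouse with the least thin filament mRNA, HFD 3, had more *Tpm1* and *Tpm2* than HFD 1, which had more thin filament mRNA. Within LFD, the order of the mice in *Tpm2* was that of the thin filament sum. In *Tpm1*, LFD 3 stood above LFD 1 on TPM although its thin filament sum was lower. On log2 CPM, *Tpm1* was higher in LFD 1 (8.40) than in LFD 3 (7.92), so that difference in order depended on the scale.

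**Figure D4:**
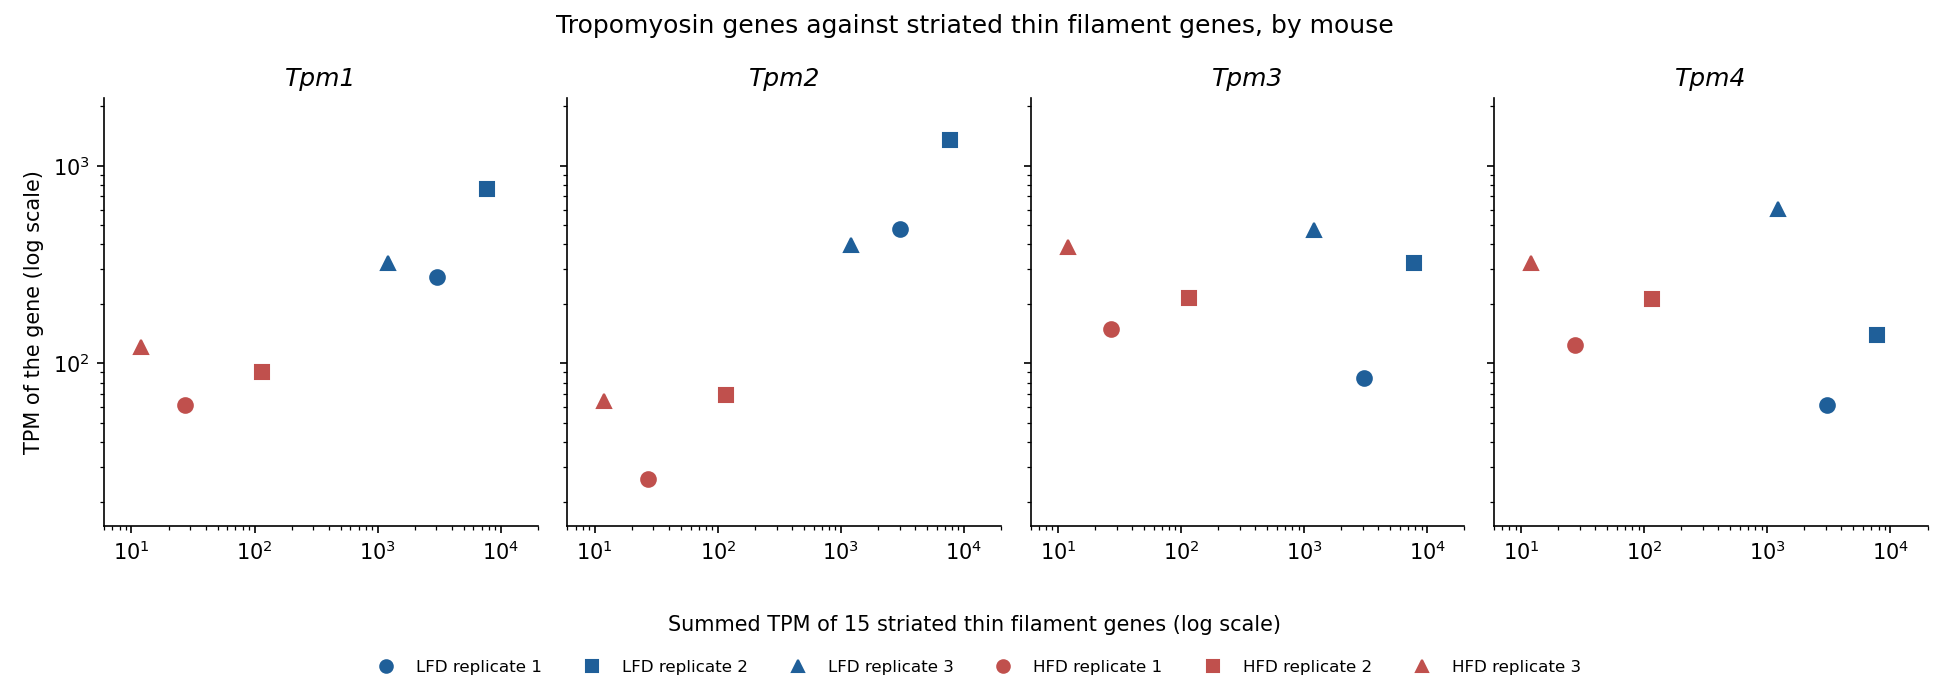
TPM of each tropomyosin gene (vertical log axis) against the summed TPM of 15 striated thin filament genes (horizontal log axis), 1 point for each mouse, LFD in blue and HFD in red. The thin filament sum is 1210 to 7763 in LFD and 12.0 to 116 in HFD, and the gap between the diets is narrower for Tpm2 and Tpm1 and absent for Tpm3 and Tpm4.

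Markers of skeletal muscle fibres differed between the diets in the same direction as *Tpm1* and *Tpm2*, but did not follow them in every mouse. All 10 genes of the fast fibre list, such as the myosin genes *Myh4*, *Mylpf* and *Myl1*, were lower in every HFD-fed mouse, beside 9.23% of all genes for this and the next muscle lists. The list had a median log2 fold change of -6.12 and a summed level of 778 to 5984 TPM in LFD and 15.1 to 108 TPM in HFD. Within HFD, this sum was lowest in HFD 3 (15.1 TPM), the mouse of that diet with the most *Tpm1* (121 TPM). Within LFD, the order of the mice in *Tpm2* was that of the sum. Of the slow fibre list 6 of 7 genes were tested and 5 did not overlap, with a median of -5.87. Its summed level, in which *Tnnt1*, *Tnnc1* and *Myl2* took the largest parts, was 15.1, 759 and 198 TPM in LFD 1, 2 and 3 and 2.35 to 5.08 TPM in HFD. *Tpm3*, which encodes the slow fibre tropomyosin, had its highest TPM in LFD 3 and not in LFD 2. The mouse with the most slow fibre mRNA was thus not the one with the most *Tpm3*. Of 8 genes of all fibres 7 did not overlap, with a median of -5.79 and levels of 536 to 3382 TPM in LFD and 25.2 to 223 TPM in HFD. Among them the creatine kinase gene *Ckm* had a log2 fold change of -6.50, the intermediate filament gene *Des* of -3.37 and the myoglobin gene *Mb* of -0.98. The part of these muscle markers in the lower *Tpm1* and *Tpm2* of HFD-fed mice was not tested. *Myh7*, *Myl2*, *Tnni1* and *Myoz2* of the slow fibre list were at 0 in at least 1 mouse.

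Smooth muscle and contractile mural cells, known as another rich source of *Tpm1* and *Tpm2*, had markers that mostly overlapped between the diets. Of 13 genes, 0 were lower and 1 was higher in every HFD-fed mouse on log2 CPM (9.23% and 6.72% of all genes) and 0 on log2(TPM + 1), the median log2 fold change was 0.15, and the summed level was 219, 266 and 616 TPM in LFD 1, 2 and 3 and 181, 369 and 427 TPM in HFD 1, 2 and 3. The smooth muscle actin gene *Acta2* had a log2 fold change of 0.31 ± 0.56, the caldesmon gene *Cald1* of -0.49 ± 0.37 and the pericyte gene *Rgs5*, which did not overlap on log2 CPM, of 0.75 ± 0.30 (SE, adjusted *P* of 0.920, 0.735 and 0.454 by edgeR). Without HFD 1, 5 of the 13 genes did not overlap, without LFD 3, 6 did not, and without HFD 2, LFD 1 or LFD 2, 2 did not. Diets are more easily set apart with 1 mouse left out, and the shares of all genes given here are for 6 mice. These counts therefore have no share of all genes beside them and are not read as a result. Relative to this sum *Tpm2* was steady in HFD, at 14.3%, 18.8% and 15.1% in HFD 1, 2 and 3, and far higher in LFD, at 219%, 505% and 64.8% in LFD 1, 2 and 3. *Tpm1* was 34.0%, 24.4% and 28.3% of the sum in HFD and 125%, 287% and 52.0% in LFD.

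Genes of the cytoskeletal actin filament also overlapped between the diets, as *Tpm3* and *Tpm4* did. Of 19 genes, 2 were lower and 0 were higher in every HFD-fed mouse, a share near the 9.23% of all genes that were lower, and the list median was 0.09 on the log2 scale. The 2 were *Tmod2*, a filament-capping gene, and *Myh10*, a non-muscle myosin gene, named here after their values were seen. Without LFD 3, 13 of the 19 genes did not overlap and the median was 0.47, but no share of all genes is given for that setting. *Actb*, the beta-actin gene, had 1378, 2330 and 6105 TPM in LFD 1, 2 and 3 and 2502, 4077 and 6357 TPM in HFD 1, 2 and 3. The order of the mice within each diet was the same in *Actb*, *Tpm3* and *Tpm4*, with LFD 3 and HFD 3 the highest. That order is not particular to these genes. The summed smooth muscle, macrophage and endothelial markers had it too, and the share of mitochondrially encoded genes fell in it. *Actb* had a log2 fold change of 0.74 ± 0.59, the gamma-actin gene *Actg1* of 0.42 ± 0.48 and the myosin light chain gene *Myl6* of -0.09 ± 0.31 (SE, adjusted *P* of 0.758, 0.852 and 0.962 by edgeR).

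**Figure D5:**
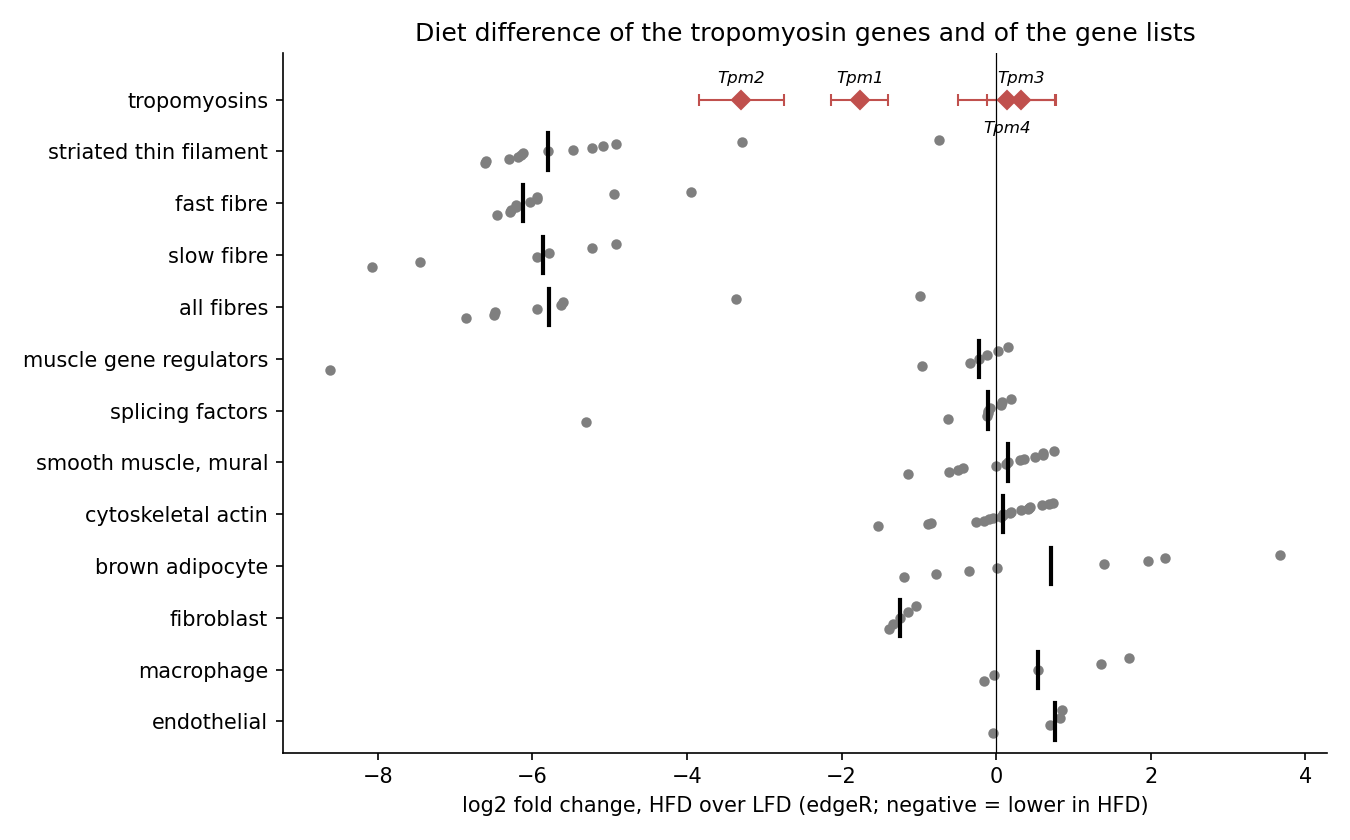
Log2 fold change of HFD over LFD by edgeR for the tropomyosin genes (red diamonds, bars are SE) and for the tested genes of each list (grey points, black line at the list median). Tpm2 (-3.30) and Tpm1 (-1.77) lie between the medians of the muscle lists (-6.12 to -5.79) and those of the smooth muscle and cytoskeletal lists (0.15 and 0.09), where Tpm3 (0.32) and Tpm4 (0.14) lie.

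The regulators of muscle transcription included 1 gene with a wide difference. Of 10 listed genes 7 were tested, 3 were lower in every HFD-fed mouse on log2 CPM (*Mef2c*, *Mef2d* and *Myf6*, beside 9.23% of all genes) and 1 on log2(TPM + 1), *Myf6*, and the median log2 fold change was -0.23. *Myf6*, a myogenic factor of mature fibres named here after its values were seen, had 3.36, 25.8 and 2.78 TPM in LFD 1, 2 and 3 and 0, 0.05 and 0 TPM in HFD 1, 2 and 3. *Myod1* and *Myog* were also at 0 in at least 1 mouse. *Mef2a* had a log2 fold change of 0.15 ± 0.27, *Mef2c* of -0.95 ± 0.38 and *Mef2d* of -0.23 ± 0.19 (SE, adjusted *P* of 0.918, 0.454 and 0.784 by edgeR). The summed level of the 10 genes was 83.8 to 237 TPM in LFD and 66.9 to 142 TPM in HFD.

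Of 9 splicing factors known to act on tropomyosin transcripts, 2 were lower in every HFD-fed mouse on log2 CPM (9.23% of all genes) and 1, *Rbfox1*, on log2(TPM + 1), and the list median was -0.10. The 2 were *Rbfox1*, with a log2 fold change of -5.30 ± 0.87, and *Rbfox2*, with -0.63 ± 0.25 (SE, adjusted *P* of 0.170 and 0.462 by edgeR), named here after their values were seen. Without LFD 1, 5 of the 9 did not overlap, and without LFD 3, 4 did not, again with no share of all genes for these settings. *Rbfox1*, a splicing factor of muscle and neurons, had 2.18, 8.28 and 1.3 TPM in LFD 1, 2 and 3 and 0.06, 0.23 and 0.07 TPM in HFD 1, 2 and 3. The more abundant factors lay close to 0 on the log2 scale, with -0.10 ± 0.31 for *Ptbp1*, which represses muscle exons of tropomyosin transcripts, 0.07 ± 0.31 for *Mbnl1* and 0.19 ± 0.23 for *Mbnl2* (SE, adjusted *P* of 0.958, 0.970 and 0.856 by edgeR). The summed level of the 9 genes was 356 to 602 TPM in LFD and 306 to 511 TPM in HFD.

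Markers of the remaining cell types of the tissue are given beside the tropomyosins because they also moved between mice. Over all genes, 9.23% were lower and 6.72% higher in every HFD-fed mouse. Of 8 brown adipocyte markers 1 did not overlap, *Ucp1* (higher in HFD), with a list median of 0.70 and log2 fold changes of 3.67 for *Ucp1*, -1.19 for *Adipoq* and -0.35 for *Fabp4*. The rest of that list had 2.19 for *Cidea*, 1.96 for *Elovl3*, 1.39 for *Ppargc1a*, 0.02 for *Pparg* and -0.78 for *Plin1*. Of 5 macrophage markers 2 were higher in every HFD-fed mouse on log2 CPM and 0 on log2(TPM + 1). The macrophage median was 0.54 (0.11 without LFD 1 and 1.23 without LFD 3), and the log2 fold changes were 1.72 for *Cd68*, -0.16 for *Mrc1* and 0.54 for *Lyz2*. Of 4 endothelial markers 0 were set apart by diet, with a median of 0.76 and log2 fold changes of 0.83 for *Pecam1*, 0.86 for *Cdh5* and 0.69 for *Kdr*. Of 5 fibroblast markers only *Dcn* did not overlap (-1.39, lower in HFD), with a median of -1.25, -1.25 for *Col1a1* and -1.04 for *Col1a2*. Without LFD 1, 3 brown adipocyte, 4 macrophage, 1 endothelial and 3 fibroblast markers did not overlap, and without HFD 3, 4 brown adipocyte markers did not. Without HFD 1, 3 endothelial and 2 fibroblast markers did not overlap, and without LFD 3, 2 brown adipocyte and 2 fibroblast markers did not. Without HFD 2 or LFD 2, 2 fibroblast markers did not overlap. Diets are more easily set apart with 1 mouse left out, and the shares of all genes given above are for all mice. The counts with 1 mouse left out therefore have no share of all genes beside them and are not read as a result. By edgeR the smallest adjusted *P* in these 4 lists was 0.266. *Tpm4* was highest in LFD 3, and so were the summed fibroblast markers, at 12048 TPM in LFD 3 beside 836 to 3587 TPM in the other 5 mice. The sums of the macrophage (3321 TPM), smooth muscle (616 TPM) and cytoskeletal actin (12343 TPM) lists were highest in LFD 3 too. Within HFD, *Tpm4* was highest in HFD 3 (322 TPM), the mouse with the lowest fibroblast sum of that diet (1332 TPM). The part of these cells in the level of *Tpm4* was not tested.

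The genes whose log2 CPM followed each tropomyosin gene most closely over the 6 mice were named by Pearson *r* among 13788 genes with a mean log2 CPM of at least 1. For *Tpm2* they were *Mlf1*, *Hs3st3b1*, *Ttll7*, *Trim63* and *Egf* (*r* = 0.990 to 0.998). For *Tpm1* they were *Card6*, *Usp35*, *Adcy2*, *Phf20* and *Ggt5* (*r* = 0.991 to 0.996). *Trim63*, a ubiquitin ligase of muscle, had 4.34 to 54.3 TPM in LFD and 0.03 to 0.25 TPM in HFD, a much wider gap than that of *Tpm2*. For *Tpm3* they were *Csf3r*, *Zbtb48*, *Cfap45*, *Gsdmd* and *Ncf1* (*r* = 0.992 to 0.998), and for *Tpm4* they were *Mtbp*, *Plk4*, *Srd5a3*, *Mcm4* and *Mad2l1* (*r* = 0.994 to 0.998). No gene is named for more than 1 member. Each *r* is the highest of many over few mice, and the points share the libraries, the diets and their depth, so the names are a description of these 6 mice.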

How the data were processed

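RNA-Seq of BAT, from 3 mice on each diet, was analysed at the gene level, with diets and replicate numbers taken from the labels. The authors removed adapters with Trimmomatic 0.36 and aligned single-end reads of 75 bases to GRCm38.p4 (Ensembl 84) with RSEM 1.3.0. Per the file headers, the authors deposited an expected count for each gene, which is not normalized and divides a read between the genes it matches. They also deposited TPM values, scaled by effective length to a fixed total. Expected counts were rounded, filtered with filterByExpr, normalized by TMM and fitted in R 4.3.3 with edgeR 4.0.16 (quasi-likelihood, Benjamini-Hochberg); calls needed an adjusted *P* below 0.01 and a log2 fold change above 1.5 in size, the study's thresholds. DESeq2 1.42.0 was an alternative, the tool the authors used. Each SE of an edgeR log2 fold change was the size of that value divided by the square root of its quasi-likelihood F statistic. Log2 CPM had a prior count of 2 and log2 TPM a pseudocount of 1.

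The members and the gene lists were chosen with earlier results of these data known, so the members' diet difference was not tested. Named genes were the members, other *Tpm* rows, the 3 genes of highest mean TPM in each list and the 5 genes most like each member. Levels of members were compared within mice by an exact two-sided sign-flip test, adjusted over 6 pairs. Depth was 17156991 to 21603487 counts per mouse, and counting error adds to the spread between mice. Within a diet, no 2 libraries agreed within sampling noise (chi-square over degrees of freedom, 79.7 to 621). The mice share replicate numbers across diets. Deviations from the diet mean correlated at 0.498, 0.229 and 0.522 in same-numbered pairs and at -0.528 to 0.0532 in the others, so the numbers were also fitted as a block, although no source says that such mice were matched. Positions come from GENCODE M21 and sequences from RefSeq (GRCm38.p6). Motif searches used 250 bases. Alternatives were RLE factors, other count filters (none, or 10 counts in every sample), mitochondrially encoded genes left out, log2 TPM, and each mouse left out.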

Additional observations from a re-analysis of the deposited data

How the results depend on the processing

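The log2 fold change of *Tpm1* (-2.00 to -1.40) and *Tpm2* (-3.66 to -2.78) kept its direction when each mouse was left out in turn, and also with RLE factors, other filters and DESeq2. As a difference of log2(TPM + 1) it was -2.20 and -3.67. The replicate block gave -1.70 for *Tpm1*, -3.16 for *Tpm2*, 0.39 for *Tpm3* and 0.48 for *Tpm4*, with 0 genes called. Genes at an unadjusted *P* under 0.05 then numbered 1548 lower and 1546 higher, beside 1169 and 682 without the block. The value of *Tpm4* ran from -0.25 to 1.19 with 1 mouse left out, the highest without LFD 3, and *Tpm3* from 0.00 to 0.65, with -0.02 as a difference of log2(TPM + 1). DESeq2 called 411 genes over all genes it tested, beside 0 by edgeR; the cause was not tested. Within mice, the mean log2 level ran from -0.13 to 0.27 for *Tpm1* over *Tpm2*, from -0.48 to 0.29 for *Tpm1* over *Tpm4*, from -0.97 to 0.043 for *Tpm2* over *Tpm3* and from -0.76 to 0.36 for *Tpm2* over *Tpm4* with 1 mouse left out, and was -0.017 for *Tpm1* over *Tpm4* with counts per kilobase. With 5 mice the smallest exact *P* is 0.0625.

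With 1 mouse left out, the number of genes whose diets did not overlap ran from 1 to 6 for smooth muscle, 2 to 13 for cytoskeletal actin, 2 to 5 for splicing factors, 1 to 4 for brown adipocytes, 2 to 4 for macrophages, 0 to 3 for endothelium and 1 to 3 for fibroblasts. No share of all genes is given for these settings, in which diets are more easily set apart than with 6 mice. The median ran from -0.046 (without LFD 2) to 0.47 (without LFD 3) for the cytoskeletal list, from -0.081 (without LFD 2) to 0.32 for smooth muscle, and from 0.28 (without LFD 3) to 1.24 (without LFD 1) for brown adipocytes. On log2(TPM + 1), the median was -3.37 for the striated thin filament, -3.55 for slow fibres and -0.32 for splicing factors, and the genes without overlap numbered 0 for smooth muscle, 1 for regulators, 1 for splicing factors and 0 for macrophages. The scale lowers the fold of genes near 0, and no other cause was tested. The other 288 alternative values moved by less than the spread between mice or by less than 1.5 times, or stayed on their side of the threshold. The lowest count behind a member was 465, for *Tpm2* in HFD 1.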
